A study of Mus musculus with 8 samples.

Results

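Mouse pluripotent cells in the naive state resemble the epiblast of the early blastocyst, and they pass through a formative state before they become primed, the state of the epiblast after implantation. Pou3f1, Otx2, Fgf5, Sox3, Zic2, Zic5, Cldn6, Car14, Grhl2 and Fst are switched on during that move, and their levels in 8 induced pluripotent stem (iPS) cell clones are described here. Every probe set annotated to exactly 1 of these symbols was taken, which gave 19 of 45037 probe sets and 10 of 18193 genes with a probe set, and no probe set was shared with another symbol. The 8 clones were derived from embryonic fibroblasts of Col-OKSM mice, in which doxycycline induces Oct4, Sox2, Klf4 and cMyc, 4 in medium with ascorbic acid (vitamin C) and 4 in the same medium without it. All 8 were grown with serum, LIF and doxycycline on irradiated fibroblast feeders, so doxycycline was present in both groups, and feeders were removed by preplating before RNA was taken. Each clone was read on 1 Affymetrix mouse 430_2 array. The labels call the clones biological replicates but do not tie them to separate embryos, so the tests measure the spread between these clones. The question followed here is whether the clones with ascorbic acid differ in formative and primed genes once Tcf15, a factor of the same state that rose with the supplement, is set aside.

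Leaving the naive state is driven in large part by FGF signalling through ERK, while LIF and the naive transcription factors hold cells back. Otx2 and Pou3f1 are among the first factors to appear, and Otx2 moves Oct4 to the enhancers of formative genes. Fgf5 is the classical transcript of the primed epiblast, and Sox3, Zic2 and Zic5 join the epiblast programme and later mark neural tissue. Grhl2 opens enhancers of epithelial genes during the same step, Cldn6 is a tight-junction protein of early epithelia, Car14 is a membrane-bound carbonic anhydrase, and Fst (follistatin) is a secreted inhibitor of activins. The set thus holds 6 transcription factors, 2 secreted proteins and 2 membrane proteins.

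Regulatory sequence was at hand in the RefSeq promoter table for 5 of the 10 genes, and 2 stretches are shown. They belong to the member with the least signal and the one whose brightest probe set varied least between clones. The stretches are the 250 bases before the annotated start. Every CpG, the dinucleotide at which most mammalian DNA methylation occurs, is in capitals. The Fgf5 stretch lies at chr5:98253934-98254183 on the plus strand and the Zic5 stretch at chr14:122465659-122465908 on the minus strand (GRCm38.p6).
Fgf5: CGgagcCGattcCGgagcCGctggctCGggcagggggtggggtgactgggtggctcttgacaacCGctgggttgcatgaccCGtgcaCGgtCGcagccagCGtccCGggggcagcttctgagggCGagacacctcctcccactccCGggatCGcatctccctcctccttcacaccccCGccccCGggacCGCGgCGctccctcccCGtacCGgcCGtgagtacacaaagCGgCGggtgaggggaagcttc
Zic5: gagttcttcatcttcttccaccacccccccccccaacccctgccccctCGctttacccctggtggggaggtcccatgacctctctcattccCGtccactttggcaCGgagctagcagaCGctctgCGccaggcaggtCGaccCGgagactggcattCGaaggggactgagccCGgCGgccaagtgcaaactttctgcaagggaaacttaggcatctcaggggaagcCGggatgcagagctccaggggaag
The Fgf5 stretch holds 24 CpGs, a number reached by 12% of 32851 stretches of the same length in the table, and the Zic5 stretch holds 11, reached by 35.6%. Cldn6 has 9 and Car14 10, and the 4 annotated starts of Otx2 have 6 to 14. The E-box CANNTG, the motif that basic helix-loop-helix factors such as Tcf15 bind and which reads the same on both strands, is absent before Fgf5 and Car14, occurs 1 time before Zic5 and 1 time before Cldn6, 0 to 2 times before the starts of Otx2, and is in 66.2% of all stretches. Methylation and binding were not measured in these clones.

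The array medians were signals of 134 to 156, and the pluripotency genes were read at high signal in both groups. Doxycycline, present in both groups, induces Oct4 and Sox2, and the share of their signal from that source was not measured. Pou5f1 (Oct4) had a mean signal of 10295 ± 948 with and 11283 ± 292 without ascorbic acid, Nanog 8948 ± 891 and 9709 ± 294, and Sox2 14333 ± 529 and 15002 ± 335 (SD, n = 4 each). Among 8 such markers the difference was above 0 for 2 and below 0 for 6, and 0 passed in limma by adjusted or by unadjusted p under 0.05. Their median was a difference of -0.11 log2 (-0.033 after quantile normalization), and that of Dppa5a was -0.25 log2 (-0.047 after quantile normalization). The summed signal of 18 fibroblast and feeder markers with a probe set, of 20 listed, was 32404 to 40196 with and 38010 to 40407 without. Of the 15 tested ones 2 were higher and 13 lower, with a median of -0.19 log2, where 48.6% of all tested genes were higher. With arrays centred on their medians 3 were higher and 12 lower, with a median of -0.16, where 60.1% of all were higher. By adjusted p 0 passed. By unadjusted limma p under 0.05 there were 5, 1 higher and 4 lower, where 5.83% of all tested genes were counted. Those with the smallest p were Postn, a matrix protein, at -0.38 and Twist1, a mesenchymal factor, at 0.52 log2 (limma, adjusted p = 0.749 for each). In RNA from whole cultures, fewer cells of a type and less RNA per cell cannot be told apart.

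No member passed the test. Of the 10 genes, 9 were bright enough to be tested (a mean signal above about 93.7), and 0 of them had an adjusted p under 0.05 in limma, where 3 of 13125 tested genes, 0.0229%, passed. By unadjusted p under 0.05, Pou3f1 alone was counted, 1 of 9 members against 5.83% of all genes, and 2 were counted when clone 1 lacking ascorbic acid was left out. The 9 tested members were higher with ascorbic acid in 5 cases and lower in 4, and their median difference was 0.034 on the log2(signal + 16) scale, beside -0.0042 and 48.6% higher for all tested genes. With each array centred on its median the members kept 5 higher and 4 lower, at a median of 0.068, while the share of all tested genes that were higher moved to 60.1% and their median to 0.029. Read without the limit on dim genes, so that Fgf5 is included, the 10 members were higher in 5 and lower in 5, with a median of -0.0018. Leaving out 1 clone moved the median of the tested members to between -0.107, without clone 3 lacking ascorbic acid, and 0.155, without clone 2 with it. In 0 of the 9 tested members did the groups separate fully, where 3.63% of all genes did.

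**Figure D1:**
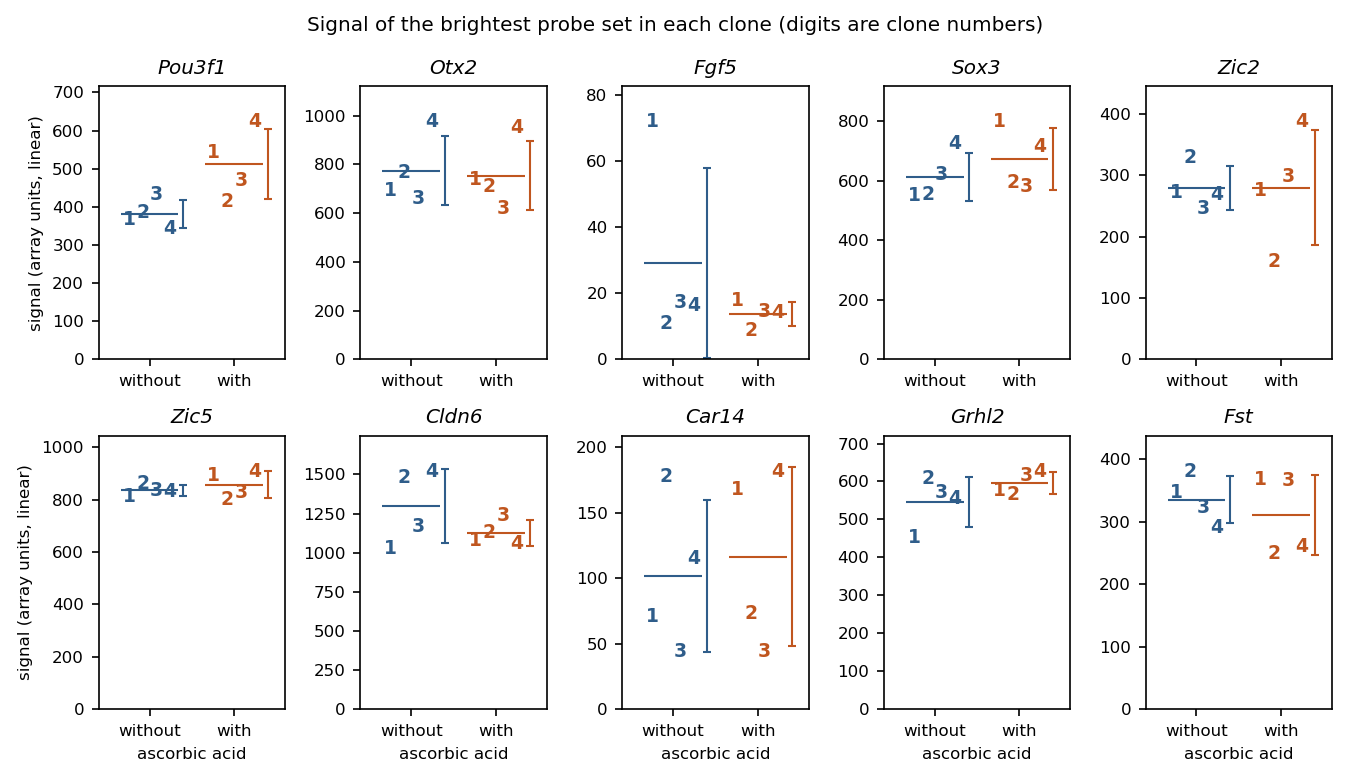
Signal of the brightest probe set of each of the 10 genes (vertical axes, linear array units, each panel on its own scale) in the clones without (blue) and with (orange) ascorbic acid. Digits are clone numbers, the horizontal lines group means and the brackets SD (n = 4 each); the groups overlap in every panel, and Pou3f1 comes closest to a gap.

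Pou3f1, also called Oct6, is a POU-domain factor of the formative epiblast and had the largest difference among the tested members. Its brightest probe set read 543, 415, 468 and 623 in clones 1 to 4 with ascorbic acid and 367, 385, 431 and 342 in clones 1 to 4 without. Only clone 3 without ascorbic acid (431) reached into the other group, where clone 2 (415) was lowest. The mean was 512 ± 90.9 with and 381 ± 37.7 without (SD, n = 4 each), 1.32-fold on the log2(signal + 16) scale. The log2 difference of 0.40 ± 0.13 (SE) had a 95% interval of 0.12 to 0.68, an unadjusted p of 0.00858 and an adjusted p of 0.749 (limma). By p it ranked 147th of 13125 genes, and 2.67% of all genes differed by more in either direction. The other Pou3f1 probe set also read higher with ascorbic acid, 335 ± 57.9 against 264 ± 46.1 (SD, n = 4 each). Its log2 difference was 0.33 ± 0.16 (SE), and there too the groups overlapped.

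Otx2, a homeobox factor that acts early in the exit from the naive state, was nearly level between the groups. It read 740, 707, 619 and 949 in clones 1 to 4 with ascorbic acid and 694, 766, 660 and 975 in clones 1 to 4 without. Clone 4 was the highest of its group on both sides, and the remaining 6 clones lay between 619 and 766. The log2 difference was -0.038 ± 0.14 (SE), with a 95% interval of -0.34 to 0.26 (limma, adjusted p = 0.978). Its sign turned when clone 3 with (0.049) or clone 4 without ascorbic acid (0.077) was left out.

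Sox3, a SOXB1 factor close to Sox2, gave 2 readings that pointed in opposite directions. The brighter probe set read 799, 594, 580 and 716 in clones 1 to 4 with ascorbic acid and 550, 555, 619 and 724 in clones 1 to 4 without, with clones of both groups at the top and at the bottom. Its log2 difference was 0.13 ± 0.12 (SE), with a 95% interval of -0.13 to 0.39 (limma, adjusted p = 0.905). The dimmer probe set read 167, 160, 125 and 155 with and 240, 169, 225 and 244 without. Here every clone with ascorbic acid lay below every clone without, although 167 and 169 nearly met, and 3.12% of all 45037 probe sets separate fully. This log2 difference was -0.48 ± 0.16 (SE), with an unadjusted p of 0.0116 and an adjusted p of 0.881 (limma over all probe sets). With the mean of both probe sets standing for the gene, the log2 difference was -0.18, so the direction for Sox3 depends on the probe set and none is given for the gene.

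Zic2 and Zic5 encode zinc-finger factors and both lie on chromosome 14. Zic2 read 275, 159, 297 and 387 in clones 1 to 4 with ascorbic acid and 272, 330, 246 and 269 in clones 1 to 4 without. The group with ascorbic acid held both the lowest clone (clone 2) and the highest (clone 4), and the means were almost the same at 280 ± 94.0 and 279 ± 35.7 (SD, n = 4 each). The log2 difference was -0.052 ± 0.21 (SE), with a 95% interval of -0.52 to 0.41 (limma, adjusted p = 0.979). It was 0.18 without clone 2 of the group with ascorbic acid and 0.027 without clone 2 of the other group.

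Read by the brightest probe set of each gene, Zic5 was the steadiest of the tested members. Its brightest probe set read 892, 800, 826 and 907 in clones 1 to 4 with ascorbic acid and 812, 862, 834 and 831 in clones 1 to 4 without. All 8 values lay within 1.13-fold of each other, and its within-group SD of 0.065 log2 was smaller than that of 93.1% of tested genes. The difference was 0.034 ± 0.068 log2 (SE), and its 95% interval of -0.11 to 0.18 is the narrowest among the tested members (limma, adjusted p = 0.960). The other Zic5 probe sets had log2 differences of 0.17 ± 0.11 and -0.083 ± 0.088 (SE). The first of these was nearly as bright but less steady, at 646 to 1040 over the 8 clones. The second read 339 to 408.

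Grhl2, a grainyhead factor of epithelial enhancers, read 577, 565, 617 and 626 in clones 1 to 4 with ascorbic acid and 451, 607, 571 and 555 in clones 1 to 4 without. Clone 1 without ascorbic acid was the low one, and the other 7 clones lay between 555 and 626. Its log2 difference was 0.13 ± 0.098 (SE), with a 95% interval of -0.084 to 0.34 (limma, adjusted p = 0.882). Another Grhl2 probe set above the dim limit gave 0.096 ± 0.12 (SE), and 2 dim ones gave -0.31 ± 0.32 and -0.20 ± 0.24 (SE).

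Fgf5, a secreted growth factor and a widely used marker of the primed epiblast, was read at very low signal in 7 of the 8 clones. Its brightest probe set gave 17.6, 8.66, 14.3 and 14.0 in clones 1 to 4 with ascorbic acid and 71.8, 10.9, 17.3 and 16.1 in clones 1 to 4 without. Clone 1 without ascorbic acid stood apart, and its value too was below the limit for testing. The other Fgf5 probe set read 12.9 in that clone and 12.9 to 19.0 over all 8, so it did not show the same high value. Over all probe sets the log2 differences were -0.44 ± 0.34 and -0.013 ± 0.17 (SE; limma, adjusted p = 0.945 and 0.999).

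Fst, which binds and inhibits activins, read 367, 249, 365 and 260 in clones 1 to 4 with ascorbic acid and 347, 380, 323 and 292 in clones 1 to 4 without. Clones 1 and 3 with ascorbic acid lay within the range of the other group and clones 2 and 4 below it. This gave a log2 difference of -0.12 ± 0.15 (SE), with a 95% interval of -0.44 to 0.20 (limma, adjusted p = 0.934). The other Fst probe set pointed the other way, at 0.13 ± 0.14 (SE), and with the mean of both the difference was 0.0065. Activin subunits and receptors were among 14 ligands and receptors read beside Fgf5 and Fst, of which 3 were higher and 11 lower and 0 passed (median -0.076 log2). With arrays centred on their medians 5 were higher and 9 lower (median -0.042). Inhba, an activin subunit, was at -0.26 and the FGF receptor Fgfr1 at 0.23 log2 (limma, adjusted p = 0.767 for each). The Fgfr1 value comes from an _s_at probe set, and was 0.096 with the mean of its probe sets and 0.031 without that class.

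Cldn6, a claudin of early epithelia, had the largest negative difference among the tested members. It read 1076, 1129, 1241 and 1058 in clones 1 to 4 with ascorbic acid and 1029, 1479, 1170 and 1519 in clones 1 to 4 without. Clones 2 and 4 without ascorbic acid were high, and the other 2 clones of that group lay within or below the range with ascorbic acid. Its log2 difference came to -0.19 ± 0.11 (SE), with a 95% interval of -0.44 to 0.061 (limma, adjusted p = 0.844).

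Car14, a carbonic anhydrase at the cell surface, varied more between clones than any other tested member. It read 167, 72.9, 44.1 and 182 in clones 1 to 4 with ascorbic acid and 70.4, 178, 44.3 and 115 in clones 1 to 4 without. The values ran over a 4.12-fold range, with high and low clones in both groups. Its within-group SD of 0.78 log2 was exceeded by 0.503% of tested genes. The log2 difference of 0.14 ± 0.42 (SE) had a 95% interval of -0.78 to 1.06 (limma, adjusted p = 0.975), the widest among the tested members. The probe set is of the _s_at class, which can read several transcripts, its mean lies just above the dim limit, and without clone 3 lacking ascorbic acid the log2 difference was -0.14.

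**Figure D2:**
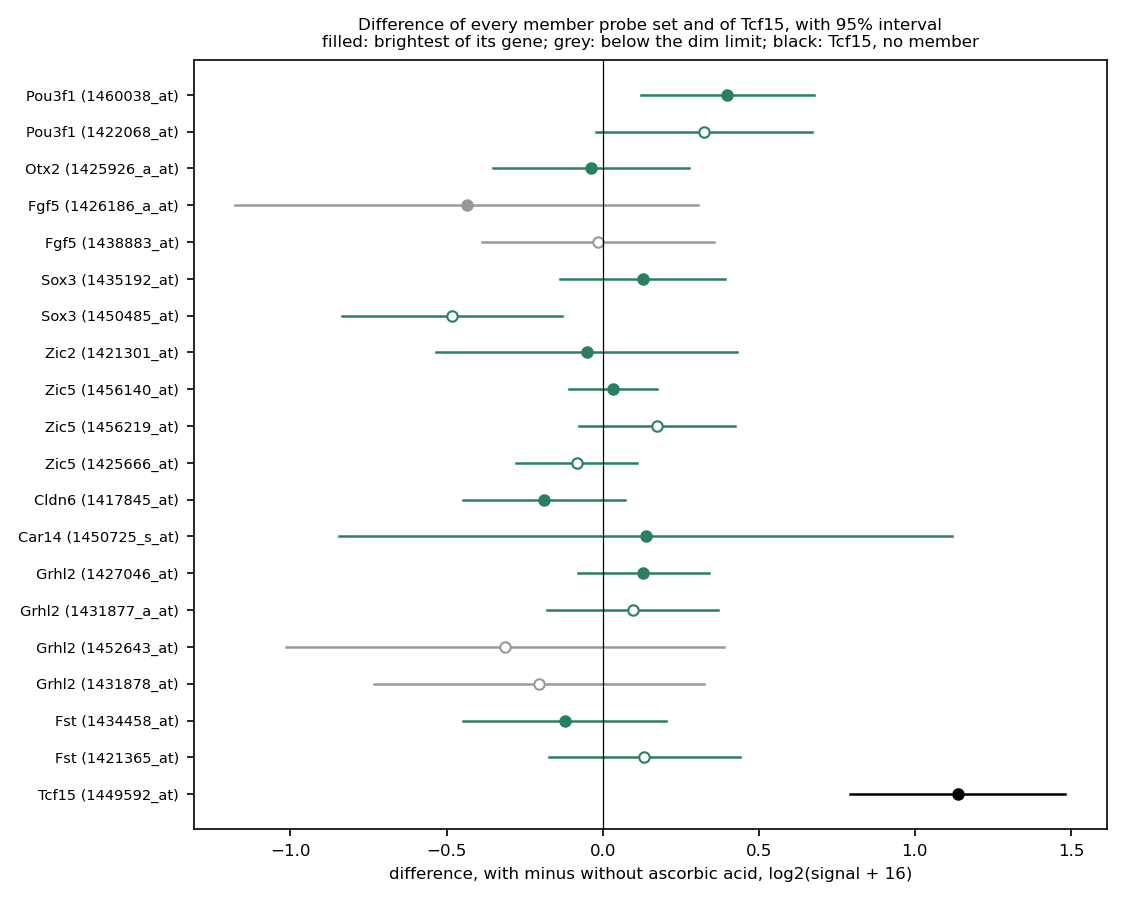
Difference with minus without ascorbic acid (horizontal axis, log2(signal + 16)) for all 19 member probe sets and for Tcf15, with 95% intervals from limma over all probe sets. Filled points mark the brightest probe set of a gene and grey ones probe sets below the dim limit; 9 of the 19 lie above 0, and Tcf15 lies further to the right than any of them.

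Taken one by one, the probe sets gave no call either. Of the 19, 9 were higher with ascorbic acid and 10 lower, with a median of -0.013 log2 beside -0.015 for all 45037 probe sets. Of the 15 above the dim limit, 9 were higher and 6 lower, with a median of 0.096. Genes with several probe sets count repeatedly among these 15, and taken by gene the median of the tested members was 0.034. The matching values over all probe sets above the limit were not taken. By adjusted p 0 of 19 passed, where 0.0244% of all probe sets did, and by unadjusted p under 0.05 there were 2, the Pou3f1 and Sox3 probe sets named above, where 5.37% of all did (limma over all probe sets). In 3 of the 6 genes with several probe sets, Sox3, Zic5 and Fst, probe sets above the dim limit lay on both sides of 0.

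For 8 of the 9 tested members the spread between clones of a group was larger than the difference between the groups. The difference exceeded the within-group SD in 1 of 9 tested members, Pou3f1 at 2.00 times its SD, and in 23.3% of all tested genes. In the others it was 0.137 to 0.953 times the SD. The median within-group SD was 0.20 log2 for the members and 0.15 for all tested genes.

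**Figure D3:**
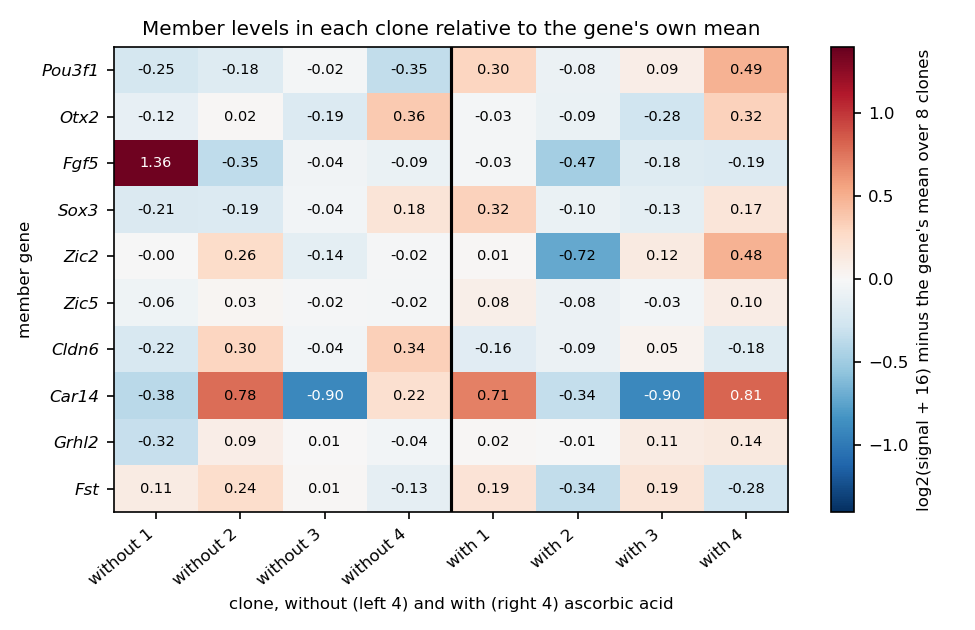
Level of each member in each clone as log2(signal + 16) minus the gene's mean over the 8 clones (colour and printed value), with the clones without ascorbic acid left and those with it right of the black line. Clone 4 with ascorbic acid was highest for 5 of the 10 genes and clone 2 with ascorbic acid lowest for 4, and Car14 and Fgf5 span the widest range.

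On the signals as deposited, clones with ascorbic acid stood at both ends of the members' range. Clone 4 with ascorbic acid had the highest level of 5 members (Pou3f1, Zic2, Zic5, Car14 and Grhl2), and clone 2 with ascorbic acid had the lowest level of 4 (Fgf5, Zic2, Zic5 and Fst) and was above the gene's own mean in 0 of 10. The mean deviation over the 10 members was 0.14, -0.23, -0.097 and 0.19 log2 in clones 1 to 4 with ascorbic acid and -0.0085, 0.10, -0.14 and 0.046 in clones 1 to 4 without. The value of clone 1 without ascorbic acid rests on Fgf5, its high reading below the dim limit, and is -0.16 when Fgf5 is left out, the lowest of its group. Clones 1 and 4 with ascorbic acid were thus high and clones 2 and 3 low on this scale. Clone 2 with ascorbic acid also had the lowest array median (134). With each array centred on its median its mean deviation was -0.11, it was above the gene's own mean in 6 of 10 members and it was lowest for 1, and after quantile normalization its mean deviation was -0.19, with 1 of 10 above and 3 lowest. The low end then changed hands with the scaling: under median centring clone 3 without ascorbic acid was lowest, at -0.19, above the gene's own mean in 0 of 10 members and lowest for 3, while after quantile normalization it was at -0.15. Clone 4 with ascorbic acid stayed high, at 0.15 and 0.17 under the same scalings, and was highest for 4 and 5 members.

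Tcf15, which encodes a basic helix-loop-helix factor of epiblast cells, is no member and shows how a gene called in the fit over genes looks. It read 1713, 1529, 1674 and 1736 in clones 1 to 4 with ascorbic acid and 701, 577, 1104 and 694 in clones 1 to 4 without. All 4 clones with ascorbic acid were above all 4 without, and clone 2 with ascorbic acid, lowest for several members, was still above 1104. The log2 difference was 1.14 ± 0.15 (SE; limma, adjusted p = 0.0285). Tcf15 missed the threshold after quantile normalization (adjusted p = 0.0543), with no dim limit (0.0949) and with no trend in eBayes (0.259). It also missed it whenever 1 clone was left out (0.0628 to 0.183), except for clone 3 lacking ascorbic acid, where leaving it out gave 5.03e-05.

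Other genes of the formative and primed states were read in a list of 24. It includes Tcf15, the methyltransferase gene Dnmt3b, the ETS factor gene Etv5 and the Wnt effector gene Lef1. These genes were more often higher than lower. So were all tested genes with arrays centred on their medians (60.1%) and, barely, after quantile normalization (50.5%). Of the 23 tested, 15 were higher with ascorbic acid and 8 lower, with a median of 0.083 log2, and 1 passed, Tcf15. Without Tcf15 the count was 14 higher and 8 lower, the median 0.068, and 0 passed. Counted together with the members and again without Tcf15, 19 of 31 tested genes were higher, or 61.3%, with a median of 0.053 beside 48.6% and -0.0042 over all tested genes. With each array centred on its median the same shares were 64.5% of these genes and 60.1% of all tested genes, and the medians 0.087 and 0.029. After quantile normalization they were 61.3% and 50.5%, and 0.047 and 0.0013. Apart from Tcf15, 4 of the other 22 tested genes of the list had an unadjusted limma p under 0.05, where 5.83% of all tested genes did. These 4 are named after their values were seen. They were Dusp6 at 0.23, Etv5 at 0.21, Sox4 at 0.13 and the Nodal inhibitor Lefty2 at -0.28 log2 (limma, adjusted p = 0.812 to 0.844).

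**Figure D4:**
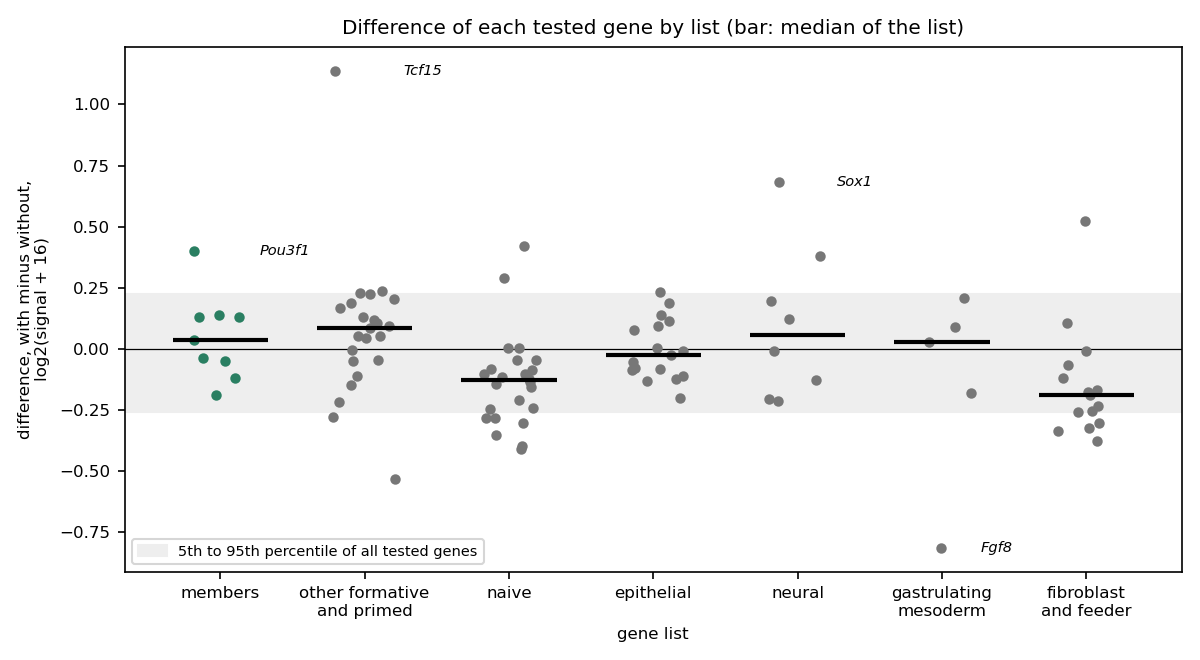
Difference with minus without ascorbic acid (vertical axis, log2(signal + 16)) of each tested gene in 7 lists, with the list median as a bar and the 5th to 95th percentile of all tested genes (-0.26 to 0.23) as the grey band. Of the 9 tested members 8 lie inside the band and Pou3f1 above it. The medians of the naive list and of the fibroblast and feeder list lie below 0, and that of the epithelial list lies just below it (-0.027).

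Genes of the naive state, which the formative programme replaces, were mostly lower with ascorbic acid, though the members had no settled direction. Of 24 tested, 4 were higher and 20 lower with ascorbic acid, with a median of -0.13 log2 (-0.096 with arrays centred on their medians) and 0 past the threshold, where 48.6% of all tested genes were higher (60.1% with that centring). By unadjusted limma p under 0.05 there were 8, 1 higher and 7 lower, where 5.83% of all tested genes were counted. Tbx3 and Klf2 had the smallest p, at -0.28 and -0.30 log2 (limma, adjusted p = 0.616 and 0.697). The fibroblast and feeder markers given above were mostly lower as well, and their part in this was not tested.

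Lineages in which some members reappear gave no call. Of 8 tested neural genes, a fate in which Sox3, Zic2 and Otx2 stay on, 4 were higher and 4 lower (median 0.056 log2), or 5 and 3 with arrays centred on their medians (0.089) and after quantile normalization (0.098). By unadjusted limma p under 0.05 there were 3, 2 higher and 1 lower, where 5.83% of all tested genes were counted. The 2 higher ones were Tubb3, a neuronal tubulin, at 0.38 log2 and Sox1, which had the largest difference at 0.68 ± 0.21 (SE; limma, adjusted p = 0.749). Sox1 read 510, 404, 402 and 422 in clones 1 to 4 with ascorbic acid and 323, 155, 361 and 264 in clones 1 to 4 without. Its groups did not overlap, as in 3.63% of all tested genes, though 361 and 402 lay close. Without clone 2 lacking ascorbic acid its log2 difference was 0.45. Of 14 genes of gastrulating mesoderm, the step after priming, 5 were bright enough to test, 3 higher and 2 lower (median 0.028). Fgf8 was at -0.81 ± 0.33 (SE; limma, adjusted p = 0.823), or -1.07 to -0.59 over the clones left out. Its mean signal was 87.2 with ascorbic acid, below the dim limit of about 93.7, and 165 without. The groups overlapped, and Fgf8 was not testable at the 60% limit. Foxa2 was at 0.21, or 0.12 without clone 1 with ascorbic acid. Of 17 tested epithelial genes, the class that Grhl2 acts on and Cldn6 belongs to, 7 were higher and 10 lower (median -0.027, and 0.0070 with arrays centred on their medians), with Cldn4 at 0.23, or 0.15 without clone 1 lacking ascorbic acid, and St14 at -0.11. Of 11 tested primitive endoderm genes 5 were higher and 6 lower (median -0.0052, and 0.028 with arrays centred on their medians), with Sparc at -0.21 and Gata6 at 0.31. The Gata6 value was 0.14 with the mean of its probe sets and 0.17 without clone 1 with ascorbic acid.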

How the data were processed

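Deposited were linear signal intensities, 1 for each probe set. Per the submitters' processing notes the authors used GCOS; its version and settings are not given in sources used here. By the values, each array was scaled to a mean of 500 after trimming 2% at each end. Of 45101 probe sets, 64 controls were left out, and 34945 had 1 gene symbol. Signals were taken as log2(signal + 16), which understates fold changes of dim genes, with scaling as deposited because array medians spanned 0.199, inside a limit of 0.2. The dimmest 40% of probe sets were left out and the brightest probe set stood for a gene. Groups were compared with limma 3.58.1 (R 4.3.3; lmFit, eBayes with trend; two-sided; Benjamini-Hochberg over 13125 genes, threshold 0.05). Single probe sets were fitted over all 45037 without that filter. The scripts were tested on simulated data. Alternatives changed scaling, pseudocount, filter, choice of probe set, the eBayes trend and the replicate block, or left out 1 clone. The number of arrays limits the precision. The members and lists were chosen with earlier results of these data known. Named are all members, Tcf15, Pou5f1, Nanog, Sox2, and, from each list, genes past the threshold or else the 2 with the smallest p; 4 further genes were named after their values were seen, and a few list members are named without values. Sequences are from a RefSeq promoter table. Drawings were made with matplotlib 3.10.9.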

Additional observations from a re-analysis of the deposited data

Results flagged for a closer look

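Each member probe set was examined for 1 clone far from the other 3 of its group, 38 groups in all. Such a clone was found in 4 (10.5%), where chance gives about 5%. The brightest Fgf5 probe set gave 71.8 for clone 1 without ascorbic acid, while its 3 fellow clones gave 10.9 to 17.3. For clone 4 without ascorbic acid a dim Grhl2 probe set gave 87.0, and 23.3 to 33.3 for the rest of the group. A brighter Grhl2 probe set, not the one that stood for the gene, gave 423 for clone 4 with ascorbic acid and 337 to 340 for the rest. Clone 4 without ascorbic acid was also low on the dimmer Fst probe set, at 167, with its group otherwise at 224 to 226.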

How the results depend on the processing

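No member passed the threshold under any of the 10 alternative settings or without any single clone (0 of 8 to 10 tested members), and no member probe set did under the settings that apply to single probe sets. The median of the tested members was -0.0018 to 0.068 log2 under the settings and -0.11 to 0.15 over the clones left out (-0.107 without clone 3 lacking ascorbic acid, 0.155 without clone 2 with it), so it has no settled sign. Pou3f1 stayed higher in all of them, at 0.30 to 0.49 log2, with an adjusted p of 0.544 to 0.948. Signs turned with a clone left out for Otx2 (range -0.152 to 0.0769), Zic2 (-0.222 to 0.18) and Car14 (-0.139 to 0.463), for Sox3 (-0.18) and Fst (0.0065) with the mean of the probe sets, and Sox2 (0.039) after quantile normalization. In all genes, 3 passed, 1 in eBayes without the trend, and 2 to 4 over the clones left out. With the clone number as a replicate block 0 members and 3 genes passed; deviations of same-numbered clones had correlations of -0.165 to 0.012, and 0 of 8 clones correlated best with their own number. Car14 was not testable at the 60% limit or without _s_at probe sets. Centring on array medians moved the median of all genes to 0.029.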
